A study of Rattus norvegicus with 6 samples.

Results

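A set of 10 genes that cells switch on in response to interferon were followed in spinal cord libraries of sham rats and of SNI-NP rats, a rat model of neuropathic pain. They were *Irf7*, *Mx1*, *Mx2*, *Ifit2*, *Ifit3*, *Oas1a*, *Isg15*, *Rsad2*, *Usp18* and *Bst2*, and each was found by its symbol in the deposited table. All 10 were among the 22050 genes listed, and all 10 were among the 14426 genes left after genes with low counts were removed. RNA was sequenced from 3 sham rats and 3 SNI-NP rats, each given as 1 library by the labels. Per the methods of the study, the animals were male Sprague-Dawley rats of 8 to 10 weeks. SNI-NP rats underwent spared nerve injury, an operation that cuts branches of the sciatic nerve and spares the sural branch, and sham rats underwent sham surgery. No transgene or drug is named for either group, and the time between surgery and tissue collection is not given in the sources used here. The labels do not say whether the libraries differ in day or litter, so p-values measure only the spread between these 6 libraries.

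Interferons are secreted alarm proteins. Type I interferons bind the receptor encoded by *Ifnar1* and *Ifnar2*, which activates the kinases Jak1 and Tyk2. These kinases phosphorylate STAT proteins such as Stat2, which join Irf9 and bind a DNA element called the interferon-stimulated response element (ISRE) in front of target genes. In the nervous system, microglia, astrocytes, endothelial cells and neurons can all answer interferon, and the target genes are best known for limiting viral replication. In bulk tissue, fewer responding cells and less RNA per cell cannot be told apart.

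The ISRE letters in front of these genes are shown first, since interferon is known to act on such genes through this element. RefSeq promoter windows of the rat assembly GRCr8, reaching from 250 bases before to 50 bases after the start of the gene, were at hand for 6 of the 10 genes (*Irf7*, *Mx1*, *Ifit3*, *Oas1a*, *Rsad2* and *Bst2*). The ISRE core was searched as GAAA, any 2 bases and GAAA, on both strands, and its letters were present in 5 of the 6 windows, against 1034 of 27457 windows over all genes (3.77%). Stretches that end at the start of the gene or before it are printed in the direction of transcription, with the matched letters in capitals (a match on the opposite strand reads TTTC, any 2 bases and TTTC).
Irf7, GRCr8 chr1:205800038-205800137, minus strand: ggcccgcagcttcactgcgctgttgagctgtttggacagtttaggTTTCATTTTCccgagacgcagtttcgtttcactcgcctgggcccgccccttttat
Ifit3, GRCr8 chr1:241527237-241527325, plus strand: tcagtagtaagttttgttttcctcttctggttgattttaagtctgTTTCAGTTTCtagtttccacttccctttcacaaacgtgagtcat
Oas1a, GRCr8 chr12:41330380-41330465, plus strand: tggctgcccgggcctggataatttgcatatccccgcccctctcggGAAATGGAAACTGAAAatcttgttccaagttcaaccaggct
Rsad2, GRCr8 chr6:48788213-48788312, minus strand: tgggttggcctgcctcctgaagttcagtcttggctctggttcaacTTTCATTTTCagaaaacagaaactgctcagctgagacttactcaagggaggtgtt
Bst2, GRCr8 chr16:18255038-18255143, minus strand: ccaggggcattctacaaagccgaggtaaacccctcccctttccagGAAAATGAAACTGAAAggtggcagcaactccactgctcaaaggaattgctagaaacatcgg
The match lay 35 to 44 bases before the start of *Ifit3* and 60 to 69 bases before that of *Irf7*. In *Oas1a* and in *Bst2*, 2 matches overlapped and the capitals cover both. The window of *Mx1* held no match, which says only that these letters were not in that window. The palindromic letters TTCNNNGAA of the gamma-activated site, an element that STAT dimers bind after interferon gamma, were in the windows of *Oas1a* and *Bst2*, against 8.68% of all windows, and the match in *Bst2* overlapped an ISRE match by letters. A match is a description of the sequence, and binding was not measured here.

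None of the 10 genes differed between SNI-NP and sham rats beyond the spread between libraries, and that spread was wide. In 9 of the 10 genes the library of sham replicate 1 and that of SNI-NP replicate 1 were each the lowest of their group. The groups overlapped in all 10 genes. By edgeR's quasi-likelihood test, 0 of 10 genes passed an unadjusted p-value of 0.05, whereas 10.8% of all tested genes did. After Benjamini-Hochberg adjustment over all genes, 0 of 10 and 0% of all genes passed, with adjusted p-values from 0.463 to 0.996 for the 10 genes. By the DESeq2 Wald test, 1 of 10 genes (*Ifit2*) passed the unadjusted threshold and 0 passed the adjusted one. Of the 14426 tested genes, 1684 and 211 did. Non-overlapping groups occurred in 0 of 10 genes, against 18.5% of all tested genes (10.4% with SNI-NP rats higher and 8.15% with SNI-NP rats lower). The fitted log2 fold change was above 0 in 4 of 10 genes, against 50.9% of all genes, and its median was -0.04 over the 10 genes and 0.01 over all tested genes.

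**Figure D1:**
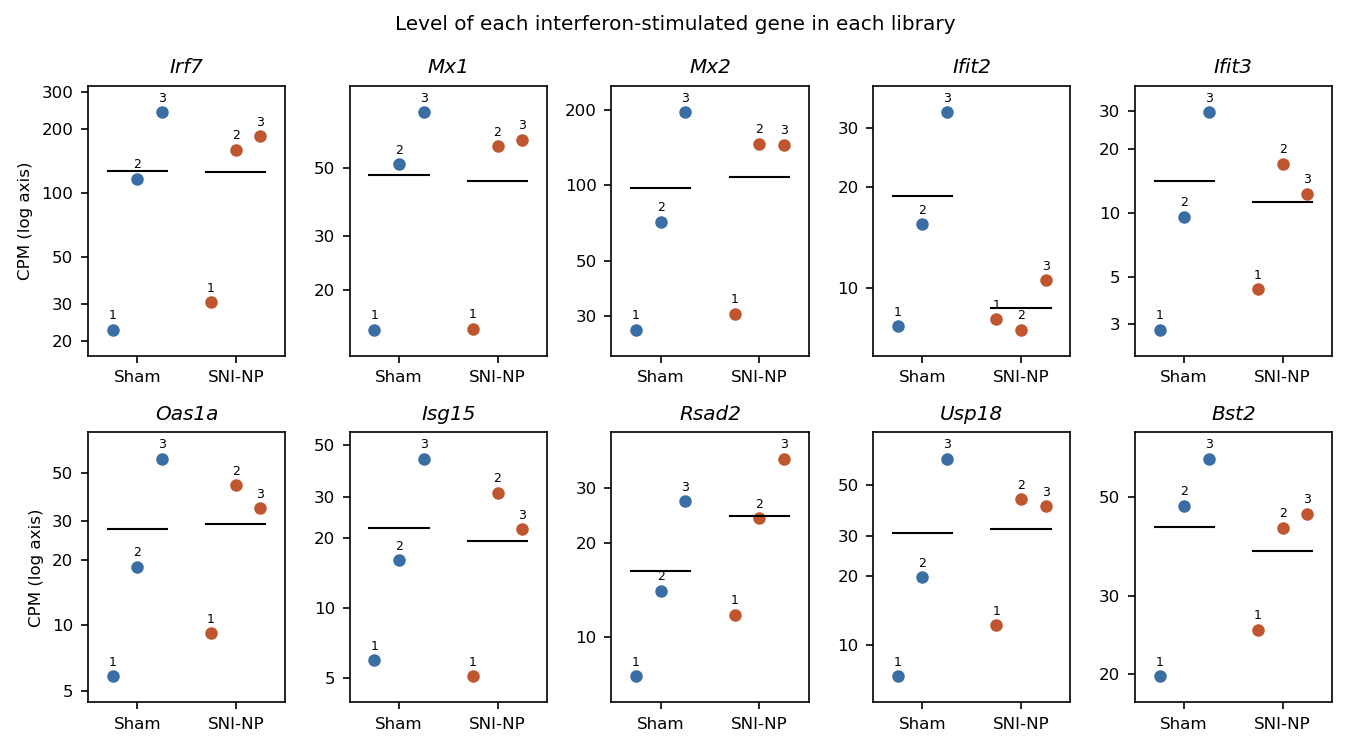
Level of each of the 10 genes in CPM (counts scaled to the size of the library, log axis) in the 3 sham libraries (blue) and the 3 SNI-NP libraries (orange). Numbers are replicates and horizontal lines are group means. Replicate 1 is the lowest point of both groups in every panel but that of *Ifit2*, where SNI-NP replicate 2 (7.50 CPM) lies under SNI-NP replicate 1 (8.05 CPM).

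Levels are given in CPM with the TMM scaling factors of edgeR included, always in the order of replicates 1, 2 and 3. *Irf7* (ENSRNOG00000017414) encodes the transcription factor that amplifies type I interferon production. It had 22.6, 116.7 and 240 CPM in sham rats and 30.5, 159.8 and 185 CPM in SNI-NP rats. Replicate 1 was low in both groups, and the other SNI-NP libraries lay between sham replicates 2 and 3. The mean was 126.4 ± 109 CPM in sham rats and 125.1 ± 82.9 CPM after nerve injury (mean ± SD, n = 3 each). The log2 fold change (SNI-NP minus sham) was -0.02 (95% interval -2.01 to 1.98), with an adjusted p of 0.996 by edgeR's quasi-likelihood test. In sham rats the highest library of *Irf7* was 10.6 times the lowest, and in SNI-NP rats 6.06 times.

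*Mx1* and *Mx2* encode dynamin-like GTPases that block viruses inside the cell. *Mx1* (ENSRNOG00000001959) had 14.8, 51.2 and 75.8 CPM in sham rats and 15.0, 58.8 and 61.7 CPM in SNI-NP rats. The replicates 1 of the groups were close to each other, as were the group means of 47.3 ± 30.7 CPM in sham and 45.2 ± 26.2 CPM in SNI-NP rats (mean ± SD, n = 3 each). For *Mx1* the log2 fold change was -0.07, with a standard error (SE) of 0.65 (adjusted p = 0.977, edgeR's quasi-likelihood test). *Mx2* (ENSRNOG00000001963) had 26.5, 71.4 and 195.6 CPM in sham rats and 30.7, 146.6 and 145.1 CPM in SNI-NP rats. SNI-NP replicates 2 and 3 were nearly equal and lay between sham replicates 2 and 3. Its log2 fold change was 0.14 with an SE of 0.77 (adjusted p = 0.961, edgeR's quasi-likelihood test). The counts of *Mx1* and of *Mx2* were not whole in 4 of the 6 libraries, and these genes are close copies, so the split of reads between them is uncertain. Their sum, which does not depend on that split, was 41.4, 122.6 and 271.5 CPM in sham rats and 45.7, 205.4 and 206.8 CPM in SNI-NP rats. The sum differed by 0.07 on the log2 scale (SE 0.73).

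*Ifit2* and *Ifit3* encode tetratricopeptide proteins that bind foreign RNA complexes and limit translation. *Ifit2* (ENSRNOG00000036604) had 7.68, 15.4 and 33.4 CPM in sham rats and 8.05, 7.50 and 10.6 CPM in SNI-NP rats. All 3 SNI-NP libraries were low, and sham replicate 1 lay among them, so the groups overlapped. The mean was 18.8 ± 13.2 CPM in sham rats and 8.70 ± 1.63 CPM after nerve injury (mean ± SD, n = 3 each). *Ifit2* had the log2 fold change farthest from 0 of the 10 genes, -1.11 (95% interval -2.24 to 0.01, unadjusted p = 0.0521, adjusted p = 0.463, edgeR's quasi-likelihood test). The DESeq2 Wald test gave an unadjusted p of 0.016 and an adjusted p of 0.266. An exact two-sided permutation test of the 3 libraries against 3 gave p = 0.3, where the smallest possible value is 0.1. Sham replicate 3 carried much of the difference, since without it the log2 fold change of *Ifit2* was -0.44. *Ifit3* (ENSRNOG00000022839) had 2.82, 9.58 and 29.6 CPM in sham rats and 4.37, 16.9 and 12.3 CPM in SNI-NP rats. It was higher in SNI-NP replicates 2 and 3 than in SNI-NP replicate 1, whereas *Ifit2* was higher in SNI-NP replicate 3 only. Its log2 fold change was -0.32 with an SE of 0.79 (adjusted p = 0.9, edgeR's quasi-likelihood test).

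*Oas1a* (ENSRNOG00000001369) encodes an oligoadenylate synthetase, which senses double-stranded RNA and activates RNase L. It had 5.82, 18.6 and 58.3 CPM in sham rats and 9.20, 43.9 and 34.4 CPM in SNI-NP rats. Sham replicate 3 was 10 times sham replicate 1, the widest gap within a group after those of *Irf7* and *Ifit3* in sham rats. The log2 fold change of *Oas1a* was 0.08 with an SE of 0.81 (adjusted p = 0.978, edgeR's quasi-likelihood test), and its counts were not whole in 3 libraries. *Rsad2* (ENSRNOG00000007539) encodes viperin, an enzyme that makes a chain-terminating nucleotide. It had 7.50, 14.1 and 27.2 CPM in sham rats and 11.8, 24.0 and 37.2 CPM in SNI-NP rats. The groups overlapped, and the highest of the 6 libraries was SNI-NP replicate 3, whereas it was sham replicate 3 in the other 9 genes. *Rsad2* differed by 0.58 on the log2 scale (95% interval -0.66 to 1.82, adjusted p = 0.692, edgeR's quasi-likelihood test), the highest of the 10 genes.

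*Isg15* and *Usp18* act on the same modification, since *Isg15* encodes a ubiquitin-like protein and *Usp18* the protease that removes it and restrains the interferon receptor. *Isg15* (ENSRNOG00000021802) had 5.94, 16.0 and 43.7 CPM in sham rats and 5.06, 31.2 and 21.7 CPM in SNI-NP rats. *Usp18* (ENSRNOG00000037198) had 7.26, 19.8 and 65.4 CPM in sham rats and 12.1, 43.4 and 40.5 CPM in SNI-NP rats. In both genes the highest library was sham replicate 3 and the next was SNI-NP replicate 2. The log2 fold change was -0.18 for *Isg15* (SE 0.79) and 0.06 for *Usp18* (SE 0.77), with adjusted p-values of 0.95 and 0.985 by edgeR's quasi-likelihood test.

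*Bst2* (ENSRNOG00000059900) encodes tetherin, a membrane protein that holds budding viruses at the cell surface. It had 19.8, 47.8 and 60.9 CPM in sham rats and 25.2, 42.7 and 45.8 CPM in SNI-NP rats. Its libraries lay closest together of the 10 genes on the log2 scale, and yet sham replicate 3 was 3.07 times sham replicate 1. The log2 fold change of *Bst2* was -0.18 (95% interval -1.12 to 0.76, adjusted p = 0.89, edgeR's quasi-likelihood test), the narrowest interval of the 10.

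**Figure D2:**
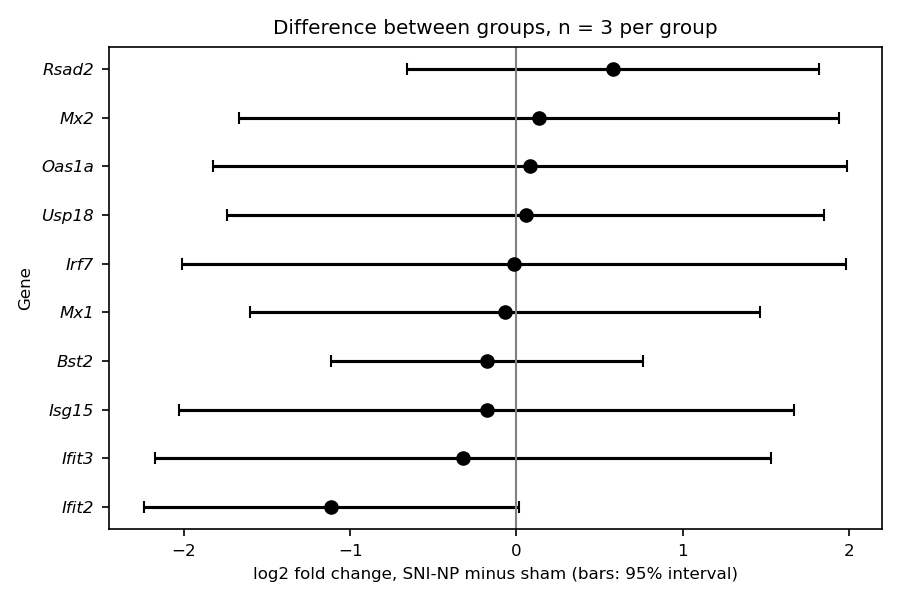
Log2 fold change (SNI-NP minus sham) of each gene with its 95% interval from edgeR's quasi-likelihood fit, 3 libraries per group. All 10 intervals include 0, and the interval of *Ifit2* (-2.24 to 0.01) reaches just past it.

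These intervals are wide. For 7 of the 10 genes they reach beyond 1 on the log2 scale on both sides, so that a doubling or a halving in SNI-NP rats could not be told from no difference with these libraries. The spread within groups was set beside that of all tested genes. The SD of log2 CPM within groups had a median of 1.35 over the 10 genes and of 0.22 over all 14426 genes. *Irf7* had the largest SD of the 10, 1.60, above 99.3% of all tested genes. *Bst2* had the smallest, 0.69, which was still above 92.4% of them.

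**Figure D3:**
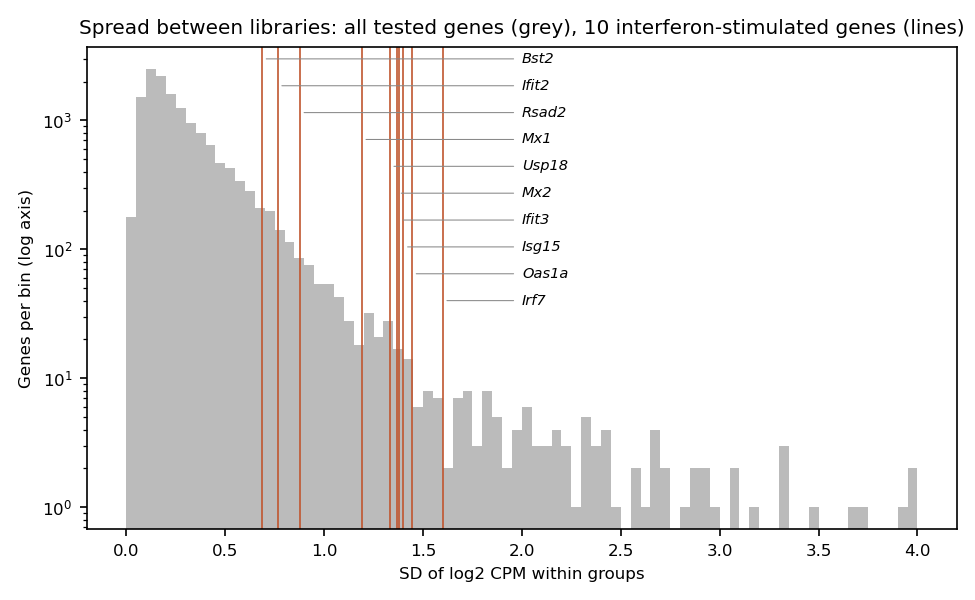
Histogram of the SD of log2 CPM within groups over all tested genes (grey, log axis for the number of genes), with a line for each of the 10 genes. The 10 lines lie between 0.69 (*Bst2*) and 1.60 (*Irf7*), to the right of the median of all genes at 0.22.

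Most of the 10 genes shared their lowest library in each group. Sham replicate 1 was the lowest sham library in 10 of 10 genes, against 32.4% of all tested genes, and sham replicate 3 the highest in 10 of 10, against 31.4%. SNI-NP replicate 1 was the lowest SNI-NP library in 9 of 10 genes, against 32.5%, and SNI-NP replicates 2 and 3 were each the highest in 5. Both replicates 1 were the lowest of their groups in 9 of the 10 genes and in 12.7% of all tested genes. Each gene was then expressed relative to its own mean on the log2 scale, and the average over the 10 genes was -1.43, 0.06 and 1.25 in sham rats and -1.09, 0.60 and 0.61 in SNI-NP rats. The sham libraries alone spanned the whole range of the 6. The 36 pairs among the genes other than *Ifit2* had a Pearson r of log2 CPM over the 6 libraries from 0.821 to 0.996. *Ifit2* had an r of 0.394 to 0.733 with the other 9 genes. These values describe 6 libraries from 2 groups and share library preparation and scaling, and they carry no test.

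*Ifit2* was the exception among the 10 genes. Relative to its own mean it was at -0.60, 0.40 and 1.51 in sham rats, an order like that of the others, and at -0.53, -0.63 and -0.15 in SNI-NP rats, where the others were high in replicates 2 and 3. The ratio of *Ifit2* to *Ifit3*, formed from FPKM values, which are scaled for gene length, was 1.63, 0.967 and 0.676 in sham rats and 1.10, 0.266 and 0.514 in SNI-NP rats. The groups overlapped in this ratio too, and it was chosen after its values were seen and was not tested. The other ratios formed varied less. That of *Rsad2* to *Irf7* was between 0.061 and 0.208 in the 6 libraries, and that of *Isg15* to *Usp18* between 0.556 and 1.09. That of *Mx2* to *Mx1* was between 1.84 and 3.40, and it depends on the uncertain split of reads between them.

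Per length, the genes stood at different levels. On the FPKM scale *Bst2* had the highest mean over the 6 libraries (71.6, range 35.3 to 110.9), followed by *Irf7* (64.1, range 11.4 to 122.2). *Bst2* was above *Irf7* in 3 of 6 libraries, so the order of this pair was not settled. *Mx2* followed with a mean of 40.8 FPKM, below *Irf7* in all 6 libraries and above *Usp18* in all 6. *Usp18* (18.0), *Oas1a* (17.3), *Isg15* (15.8) and *Mx1* (14.0) had close means, and each was above the next in 3 or 4 of 6 libraries. *Mx1* was above *Ifit3* in all 6. *Ifit3* (6.19), *Rsad2* (5.54) and *Ifit2* (4.06) were lowest, each above the next in 3 of 6 libraries.

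The pathway was followed upstream, beginning with the ligands and receptors. Of 15 genes for interferons and their receptors, 7 interferon genes, *Ifnb1* and several *Ifna* genes among them, had 0 counts in all 6 libraries, which allows up to 0.165 to 0.18 CPM depending on the library. *Ifng*, which encodes interferon gamma, had 1 count in sham replicate 2 and 1 in SNI-NP replicate 2. Such floors cover counting error only. The 6 genes that could be tested were receptor chains, and 0 of 6 passed an unadjusted p of 0.05 in either direction, against 4.91% of all genes for higher and 5.94% for lower levels. *Ifnar1* ranged from 101.6 to 135 CPM and had a log2 fold change of 0.15, and *Ifnar2* ranged from 12.6 to 15.8 CPM with a log2 fold change of -0.0004. Both chains varied less between libraries than any of the 10 target genes did. The highest log2 fold changes of this list were those of *Ifnlr1* (0.73, unadjusted p = 0.0784 by edgeR), *Ifnar1* (0.15) and *Il10rb* (0.09), and the lowest were those of *Ifnar2*, *Ifngr1* (0.04) and *Ifngr2* (0.07).

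Of 10 genes that carry the signal from the receptor to DNA, 0 passed the unadjusted threshold, against 10.8% of all tested genes. Their median log2 fold change was 0.14. *Stat2* had 79.6, 105.7 and 142.7 CPM in sham rats and 99.4, 146.6 and 150 CPM in SNI-NP rats. *Irf9* had 16.4, 36.7 and 58.7 CPM in sham rats and 23.4, 55.8 and 54.7 CPM in SNI-NP rats. Both genes, which are themselves interferon-stimulated, had replicate 1 lowest in each group. Their log2 fold changes were 0.27 (*Stat2*, SE 0.24) and 0.26 (*Irf9*, SE 0.48). The feedback inhibitor *Socs1* had the highest value of the list (0.35), and the kinase gene *Jak2* (-0.35), *Pias1* (-0.15) and *Ptpn2* (-0.11) the lowest.

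**Figure D4:**
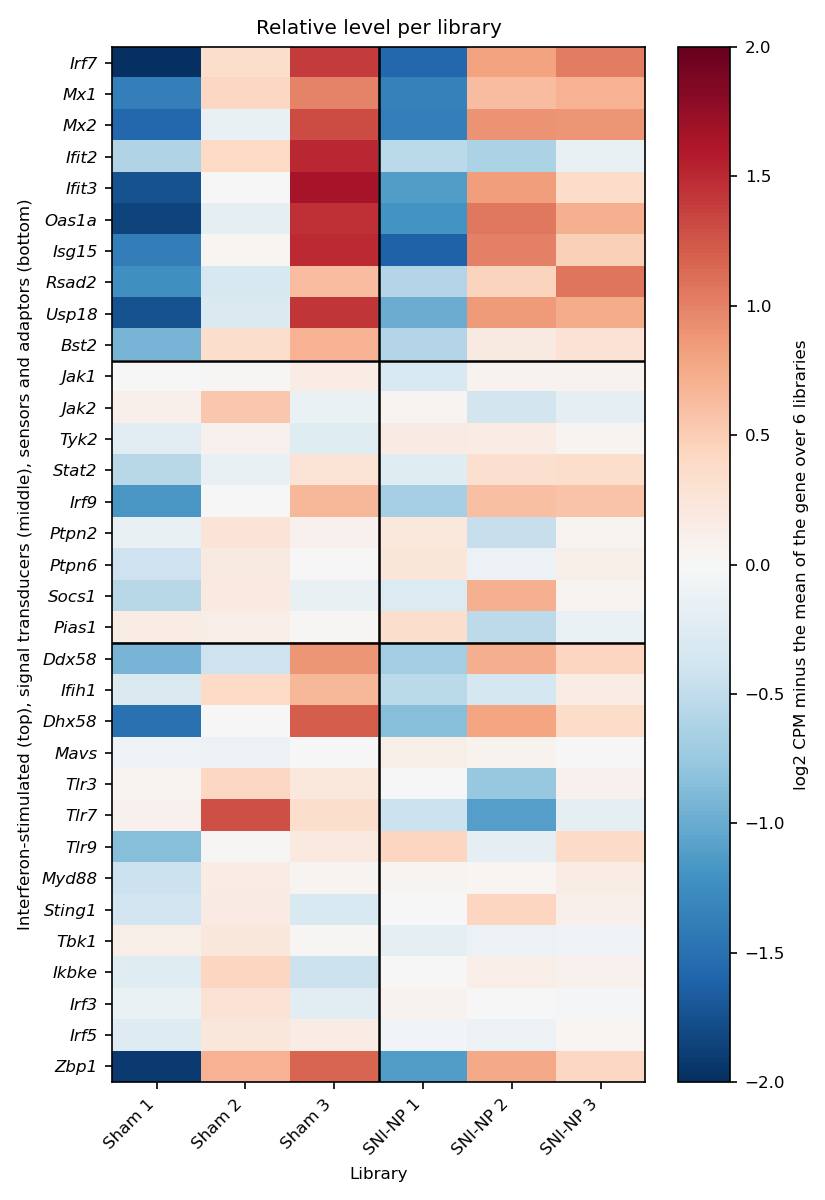
Log2 CPM of each gene minus its mean over the 6 libraries (color), for the 10 interferon-stimulated genes (top), 9 signal transducer genes (middle) and 14 genes of nucleic acid sensors and adaptors (bottom). Replicate 1 of both groups is blue and sham replicate 3 red in the top block, and *Stat2*, *Irf9*, *Ddx58*, *Dhx58* and *Zbp1* are blue in both replicates 1 too.

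Sensors of foreign or misplaced nucleic acid and their adaptors lie upstream of interferon production. Of 14 such genes tested, 0 had a higher and 1 had a lower level after nerve injury at an unadjusted p of 0.05. Over all tested genes the shares were 4.91% higher and 5.94% lower. The lower one was *Tlr7*, the endosomal sensor of single-stranded RNA, with 5.16, 11.9 and 6.23 CPM in sham rats and 3.62, 2.28 and 4.29 CPM in SNI-NP rats. Every SNI-NP library of *Tlr7* lay below every sham library, as in 8.15% of all tested genes. *Tlr7* had a log2 fold change of -1.20 with an SE of 0.38, and its adjusted p of 0.436 by edgeR's quasi-likelihood test did not pass. The next lowest log2 fold changes were those of *Ifih1* (-0.53) and *Tlr3* (-0.41). The highest were those of *Tlr9* (0.38), *Sting1* (0.34, also sought under the symbol *Tmem173*) and *Ddx58* (0.22). None of these passed. The RNA helicase genes *Ddx58* and *Dhx58* and the sensor gene *Zbp1* had an r of 0.938, 0.984 and 0.961 with the mean of the 10 genes over the 6 libraries, and were named after these values were seen. They were the 3 of 14 sensor genes with an r of at least 0.9, and the median r over the 14 was 0.381. An r does not place a gene upstream of interferon or among the genes that answer it, and this was not tested.

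A list of 73 other interferon-stimulated genes was read in the same way. Of these, 68 were in the table and 67 were tested, the median log2 fold change was 0.00, and 33 of 67 had a fitted value above 0. Both replicates 1 were the lowest of their groups in 54 of the 67 genes. At an unadjusted p of 0.05, 0 of 67 had a higher and 2 had a lower level after nerve injury, against 4.91% and 5.94% of all tested genes. *Eif2ak2*, which encodes the RNA-activated kinase PKR, had 13.6, 25.5 and 47.8 CPM in sham rats and 15.5, 10.8 and 16.2 CPM in SNI-NP rats. As in *Ifit2*, SNI-NP replicate 2 was its lowest SNI-NP library and sham replicate 1 overlapped with the SNI-NP group. *Eif2ak2* differed by -1.03 on the log2 scale with an SE of 0.42 (adjusted p = 0.445, edgeR's quasi-likelihood test). The other gene was *Trim30c*, which differed by -0.69 on the log2 scale (SE 0.24, adjusted p = 0.436 by edgeR) and had counts that were not whole in 5 libraries. *Trim30c* had 10.45, 12.73 and 9.14 CPM in sham rats and 7.88, 4.72 and 7.48 CPM in SNI-NP rats. Its groups did not overlap, with SNI-NP rats lower, as in 8.15% of all tested genes. Its r with the mean of the 10 genes was -0.271, against a median of 0.899 over the 67 genes. *Slfn4* (-1.14) and *Oas1g* (-1.04) were the other lowest values, and *Oas1g* was listed at 0 in sham replicate 1 and SNI-NP replicate 3, with counts that were not whole. The highest values were those of the chemokine gene *Cxcl10* (0.64), *Ifit1bl* (0.63) and *Apobec3* (0.61, also sought under the symbol *Apobec3b*). None of these passed.

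Genes with the pattern most like the average of the 10 were sought among all other tested genes with a mean of at least 1 CPM, by Pearson r of log2 CPM over the 6 libraries. The 8 closest were *Rtp4* (0.993), *Irgm* (0.991), *Parp14* (0.989), *Apol9a* (0.989), *RT1-T24-3* (0.988), *Socs3* (0.987), *Ifi27* (0.987) and *Oas1f* (0.986). *Rtp4* had 6.42, 22.8 and 45.9 CPM in sham rats and 8.63, 35.2 and 33.0 CPM in SNI-NP rats, and the log2 fold change was 0.03 (SE 0.71). *Socs3*, a feedback inhibitor of cytokine signaling, followed the same order within a narrow range, 2.46, 2.99 and 3.90 CPM in sham rats and 2.53, 3.50 and 3.42 CPM in SNI-NP rats. The log2 fold change of *Socs3* was 0.02 (SE 0.28). *Socs3* had 41 to 67 counts per library, against 107 to 789 for *Rtp4*, so counting error weighs more on its order. The counts of *RT1-T24-3* and *Oas1f* were not whole in 6 and 4 libraries. Of all tested genes, 137 (0.95%) had an r of at least 0.9.

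Marker genes of cell types were summed per library and set beside this pattern. The libraries are labelled spinal cord, and genes of dorsal root ganglion neurons were present in all 6. Of these genes, 9 of 9 had replicate 1 lowest in both groups. Their summed level was 640.5, 1138 and 1355 CPM in sham rats and 218.6, 1974 and 1389 CPM in SNI-NP rats. The sodium channel gene *Scn10a* among them had 14.3 CPM in SNI-NP replicate 1 and 88.1 to 276.6 CPM in the other libraries. The lists share the low replicates 1, and the median r of the ganglion genes with the mean of the 10 genes was 0.755. The ganglion genes were lower in SNI-NP replicate 1 than in sham replicate 1. By contrast, 9 of the 10 genes (all but *Isg15*) had their lower value in sham replicate 1. With the level of the ganglion genes as a covariate, a fit chosen after seeing the data, 0 of 10 genes passed the unadjusted threshold. Of the 14426 tested genes, 2227 passed it in that fit. Of the 10 genes, 7 were fitted higher instead of 4. The SE was smaller with this covariate in all of the 10 genes but *Ifit2*. It was 0.57 instead of 0.85 in *Irf7* and 0.50 instead of 0.48 in *Ifit2*.

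The order of libraries was different in microglial genes. Their summed level was 287.3, 357.3 and 319.7 CPM in sham rats and 334, 300.6 and 325.1 CPM in SNI-NP rats, and 1 of 8 had replicate 1 lowest in both groups. Genes of endothelium were between 523.2 and 641.4 CPM and those of lymphocytes between 51.9 and 84.1 CPM. Red blood cell genes were highest in SNI-NP replicate 1 (5102 CPM, against 968.6 to 2633 CPM in the others), a library in which the 10 genes were low. Neutrophil and marrow genes ranged from 38.5 CPM in sham replicate 1 to 193.3 CPM in SNI-NP replicate 1. The part of cell content in the levels of the 10 genes was not tested beyond the covariate above.

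**Figure D5:**
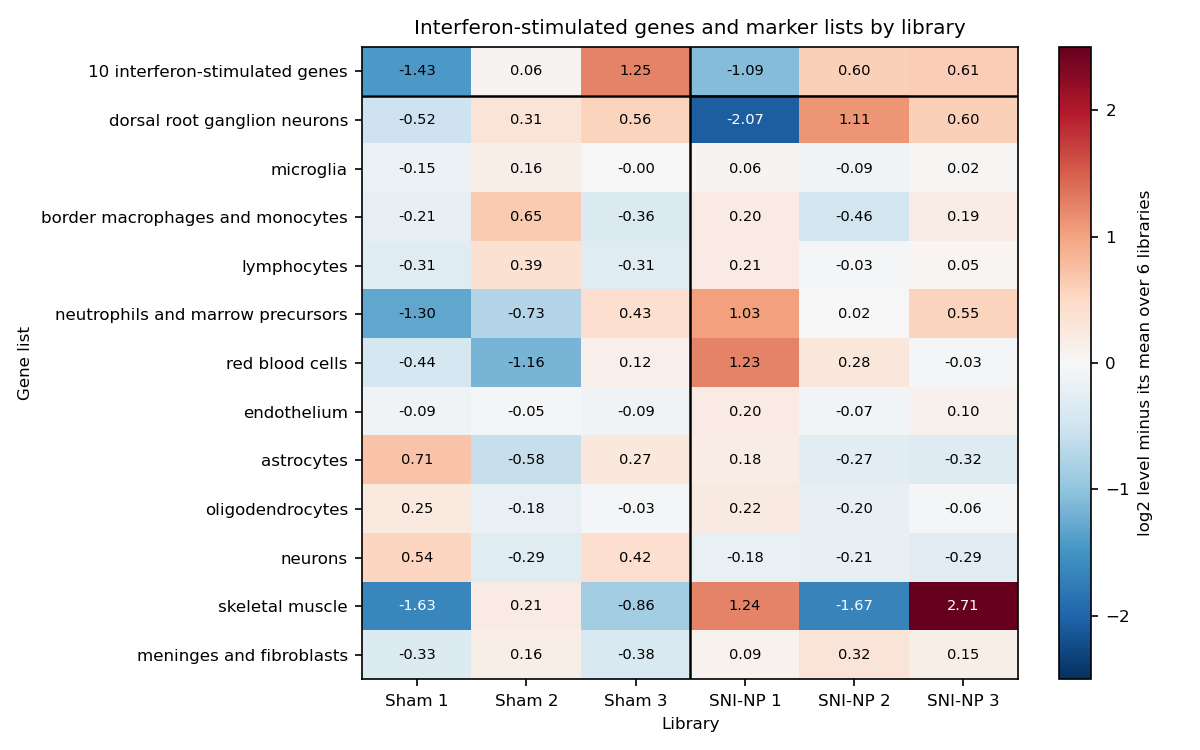
Log2 level minus its mean over the 6 libraries for the average of the 10 genes (top row) and for the summed CPM of 12 marker lists, with the value in each cell. The top row is -1.43 and -1.09 in the replicates 1, and dorsal root ganglion neuron genes are the one marker list below 0 in both.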

How the data were processed

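Total RNA of 3 sham and 3 SNI-NP rats was extracted with Trizol and made into libraries with a NEBNext Ultra RNA kit, per the labels. The authors mapped reads to the release they call Rat6 and kept unique sequences, and the submitters' processing notes name FastQC, STAR and HTSeq. Annotation and use of strand are not given in the sources used. The deposited table holds the estimated count of each gene, not normalized by the authors, beside its FPKM value (a count scaled by gene length and library size). Totals were 16670760 to 18151156 counts per library, so that 3 counts equal 0.165 to 0.18 CPM. Of genes with a count, 11.5% had a value that was not whole (tolerance 0.001). Unique reads counted once each give whole numbers, and the sources used do not say how the other values arose.

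Counts were rounded and fitted with edgeR 4.0.16 in R 4.3.3 (filterByExpr, TMM factors, quasi-likelihood test, condition as the single term), with Benjamini-Hochberg adjustment over 14426 genes and a threshold of 0.05. The study names DESeq2, so DESeq2 1.42.0 was an alternative, as was limma 3.58.1 on log2(FPKM + 0.1). CPM values are scaled by TMM factors, and log2 CPM used a prior count of 2.

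The 10 genes and all lists were chosen with earlier results of these data known. All 10 genes are named. From each pathway list the text names genes past the unadjusted threshold, the 3 highest and 3 lowest, and *Stat2*, *Irf9*, *Ifnb1*, *Ifng*, *Ifnar1* and *Ifnar2*, and *Dhx58* and *Zbp1* were named after their values were seen. The labels do not say whether same-numbered libraries are pairs. Numbers were not taken as pairs in the main fit, and a fit with the number as a block is given below. GRCr8 was used for promoter windows only. Some genes of the lists are not reported here.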

Additional observations from a re-analysis of the deposited data

How the results depend on the processing

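The 10 genes had 0 calls at an adjusted p under 0.05 in every one of 15 alternatives (13 planned, 2 chosen after seeing the data), and 31 of the 150 fitted values changed sign. The sign was kept in every alternative for *Ifit2* and *Rsad2*. At an unadjusted p under 0.05 the count of the 10 genes was 1 under DESeq2, 1 with no filter on low counts, 1 without both replicates 1 (chosen after seeing the data) and 0 to 1 when single libraries were left out. The gene was *Ifit2* each time, and the library left out was sham replicate 1. All genes at an adjusted p under 0.05 numbered 0 with all libraries, 211 under DESeq2, 2 under limma on FPKM, 215 with the ganglion covariate, 117 without both replicates 1 and 0 to 222 without single libraries (222 without SNI-NP replicate 1). At the unadjusted threshold all genes numbered 1565 of 14426 in the main fit and 1684 under DESeq2. They numbered 1675 with no filter on low counts, 1464 without both replicates 1 and 908 to 2134 without single libraries. Genes of the 10 fitted higher in SNI-NP rats numbered 7 with the ganglion covariate and 1 to 9 without single libraries (9 without sham replicate 3 or SNI-NP replicate 1, 2 without sham replicate 2, 1 without sham replicate 1, SNI-NP replicate 2 or SNI-NP replicate 3), and the sign of 8 genes turned in at least 1 of these fits. The cause was not tested.

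With the replicate number as a block, 2 of the 10 genes passed the unadjusted threshold (*Ifit2* and *Rsad2*), as did 1319 of the 14426 tested genes. The log2 fold changes of *Irf7* (0.17) and *Ifit3* (0.0349) turned positive in this fit. The labels do not say whether the numbers pair the samples. Over all tested genes, deviations of same-numbered libraries correlated at 0.214, -0.143 and 0.054, which cannot settle it with 3 libraries per group. With the block the SE was smaller in each of the 10 genes, as in *Irf7* (0.20 instead of 0.85) and *Ifit2* (0.34 instead of 0.48).

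Other changes of sign were *Irf7* at 0.13 and *Ifit3* at 0.0095 under limma, *Irf7* at 0.28, *Mx1* at 0.15 and *Isg15* at 0.0259 with the ganglion covariate, and *Usp18* at -0.0289 without both replicates 1. Without single libraries the log2 fold change ranged from -0.51 to 0.81 for *Irf7*, -0.50 to 0.42 for *Mx1*, -0.31 to 1.10 for *Mx2*, -1.49 to -0.44 for *Ifit2*, -0.80 to 0.82 for *Ifit3*, -0.39 to 1.23 for *Oas1a*, -0.71 to 0.79 for *Isg15*, 0.11 to 1.14 for *Rsad2*, -0.41 to 1.21 for *Usp18* and -0.53 to 0.13 for *Bst2*. The largest total count of a library was 1.09 times the smallest.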
